A study of Homo sapiens with 9 samples.

Results

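DHRS2, GSN, CLU and HEXIM1 are genes widely used as transcriptional markers of exposure to histone deacetylase inhibitors. They were taken by gene symbol from a table of 16772 genes, and all 4 had a row. RNA was sequenced after 6 days of treatment from DU145, a human prostate cancer cell line whose genotype the labels give as wild type. The groups were H93 at 20 µM, SAHA at 500 nM and the solvent DMSO, with 3 libraries each. Dose units appear as μm and nm in the labels and are taken to be micromolar and nanomolar. SAHA (vorinostat) is a hydroxamate inhibitor of zinc-dependent histone deacetylases, and the series title describes H93 as a compound directed at UHRF1, a protein that guides maintenance DNA methylation. The doses of H93 and SAHA differ and only 1 time was sampled. The labels do not say whether replicates were separate cultures, so p-values reflect only how far these libraries varied, and that variation may be technical.

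Histone deacetylases remove acetyl groups from lysines in histone tails and in many other proteins. When they are inhibited, acetylated histones accumulate, and a limited set of genes is switched on early and reproducibly across cell types, many of them through GC-rich promoters bound by factors of the Sp family. DHRS2, a short-chain dehydrogenase/reductase first found as a protein that appears in butyrate-treated hepatoma cells, belongs to that set. So does GSN, which encodes gelsolin, an actin-severing and filament-capping protein. CLU encodes clusterin, a secreted chaperone and apolipoprotein that was long studied in the prostate for its rise after androgen withdrawal. HEXIM1 encodes the protein that holds the elongation kinase P-TEFb inactive in the 7SK ribonucleoprotein, and it was named for its induction by hexamethylene bisacetamide, the polar compound from which SAHA was developed.

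In GENCODE release 29 (GRCh38), DHRS2 lies on the plus strand at chr14:23630115-23645639, with 10 transcripts that begin at 9 different starts. GSN lies on the plus strand at chr9:121207794-121332843, with 15 transcripts that begin at 13 different starts. HEXIM1 lies on the plus strand at chr17:45148502-45152101 and has 1 transcript made of 1 exon. CLU lies on a minus strand and has 17 transcripts. The deposited values are per gene and do not separate the transcripts of DHRS2, GSN or CLU.

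The promoters of GSN, HEXIM1 and DHRS2 are shown because Sp-type GC boxes are the element most often discussed for this kind of response. The windows shown for these 3 genes differ in them. Sequences are from RefSeq (GRCh38.p14), cover 250 bases before to 50 after the annotated start, and read 5′ to 3′ along the gene. Capitals mark GC boxes on either strand, GGGCGG or its complement CCGCCC, and neighbouring matches can share a base. For GSN the window with the most GC boxes is shown, at chr9:121267912-121268211. The HEXIM1 window is chr17:45148225-45148524 and the DHRS2 window is chr14:23629865-23630164.
GSN: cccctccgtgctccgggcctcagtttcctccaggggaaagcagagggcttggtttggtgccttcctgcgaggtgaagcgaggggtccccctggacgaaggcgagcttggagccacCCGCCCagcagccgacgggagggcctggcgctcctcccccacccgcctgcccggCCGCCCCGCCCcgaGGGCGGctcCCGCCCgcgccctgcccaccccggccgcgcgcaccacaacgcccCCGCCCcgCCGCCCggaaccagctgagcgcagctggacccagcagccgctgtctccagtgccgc
HEXIM1: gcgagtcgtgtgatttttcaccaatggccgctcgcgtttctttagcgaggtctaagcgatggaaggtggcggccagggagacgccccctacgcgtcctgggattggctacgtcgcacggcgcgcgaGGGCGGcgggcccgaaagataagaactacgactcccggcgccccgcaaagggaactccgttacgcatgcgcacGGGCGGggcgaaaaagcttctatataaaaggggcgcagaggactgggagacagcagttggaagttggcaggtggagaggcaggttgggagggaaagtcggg
DHRS2: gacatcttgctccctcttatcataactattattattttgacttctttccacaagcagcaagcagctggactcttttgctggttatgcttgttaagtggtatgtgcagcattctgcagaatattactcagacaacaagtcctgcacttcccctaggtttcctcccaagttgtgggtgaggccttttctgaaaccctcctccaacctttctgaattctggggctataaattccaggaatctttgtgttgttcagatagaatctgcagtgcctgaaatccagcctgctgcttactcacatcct
The GSN window shown holds 7 GC boxes and is 76.3% G and C. RefSeq gives GSN 6 such windows, of which 4 hold a GC box. The HEXIM1 window holds 2 GC boxes, 1 TATAAA and 2 CCAAT matches at 62% G and C. The DHRS2 window holds 0 GC boxes and 1 TATAAA at 44% G and C. It is the only DHRS2 window searched, although GENCODE lists 9 DHRS2 starts. Of all 35116 promoter windows in the table, 45% hold a GC box, 11.5% hold TATAAA and 34.6% hold CCAAT, searched on both strands. These matches describe letters only, and which GSN or DHRS2 start the cells used was not measured here.

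Values are FPKM, fragment numbers scaled by transcript length and by library total, so levels of different genes can be set side by side. Per library, FPKM summed to between 348656 and 355741, between 14910 and 15295 genes were above 0, and replicate libraries correlated at a Pearson r of 0.9976 to 0.9983 across genes. The deposited values were whole multiples of a step, fixed per gene and library, for 99.6% of genes (tolerance 0.001), and the number of steps in a value is given below as an apparent fragment number. All 5 listed epithelial markers were expressed, but they did not stay level. KRT8 rose by the test described below, with 730 ± 7.83 FPKM under H93, 714 ± 16.7 under SAHA and 676 ± 11.1 under DMSO. KRT18 lay between 653 and 714 FPKM and did not pass that test for either compound. KRT19 rose, with 420 ± 2.95 FPKM under H93, 326 ± 10.8 under SAHA and 169 ± 1.59 under DMSO. EPCAM fell, with 30.4 ± 1.08 FPKM under H93, 37.8 ± 1.86 under SAHA and 67.1 ± 0.918 under DMSO. CDH1, E-cadherin, fell, with 4.34 ± 0.334 FPKM under H93, 5.09 ± 0.199 under SAHA and 13.3 ± 0.0427 under DMSO. Of the leukocyte list, PTPRC (CD45) reached at most 0.0179 FPKM, while CD68, a lysosomal protein abundant in macrophages, rose, with 28.3 ± 0.848 FPKM under H93, 33.4 ± 1.75 under SAHA and 22.4 ± 0.341 under DMSO. Of the fibroblast list, COL1A1 rose, with 3.2 ± 0.23 FPKM under H93, 3.25 ± 0.359 under SAHA and 2.24 ± 0.301 under DMSO, and DCN reached at most 0.204 FPKM. The 3 endothelial markers were under the filter described below, PECAM1 reaching at most 0.0377 FPKM. The part of these marker changes in the results was not tested.

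The 4 markers did not move as a group. GSN rose under both compounds, CLU fell under both, HEXIM1 did not pass the test under either, and DHRS2 stood at a trace level that was higher in the H93 libraries. GSN, CLU and HEXIM1 passed the filter of at least 1 FPKM in at least 3 of the 9 libraries, and DHRS2 did not. For the 3 that passed, differences are on the scale of log2(FPKM + 1), and "rose" and "fell" mean an adjusted p under 0.05 from limma with Benjamini-Hochberg adjustment over all 11525 genes that passed. Both comparisons with DMSO use the same DMSO libraries and are not independent.

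**Figure D1:**
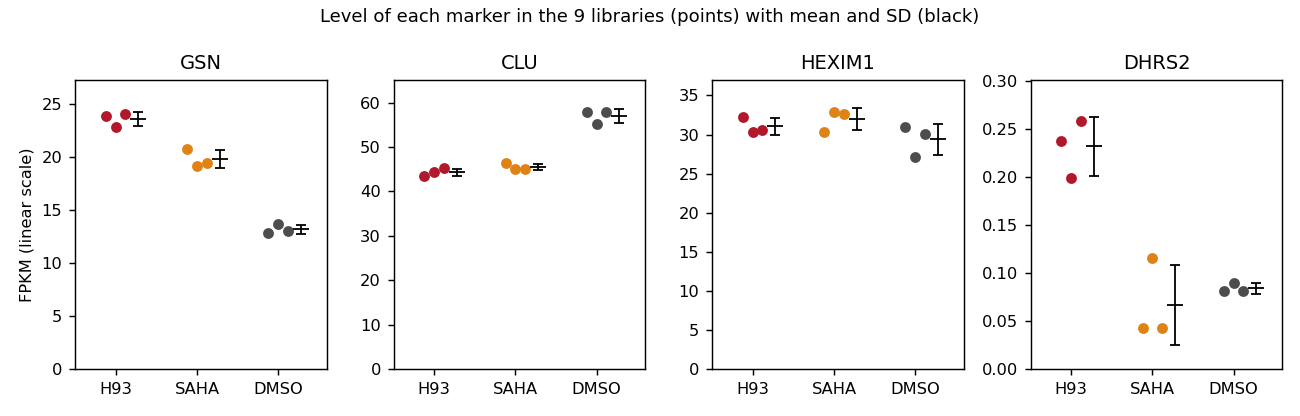
FPKM of the 4 markers in each H93, SAHA and DMSO library (points), with the group mean and SD in black and a separate linear axis for each gene. GSN is above DMSO in all H93 and SAHA libraries, CLU is below DMSO in all of them, HEXIM1 overlaps, and DHRS2 stays under 0.26 FPKM.

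GSN was the marker that rose. It had 23.94, 22.85 and 24.05 FPKM in the H93 libraries, 20.76, 19.17 and 19.46 FPKM in the SAHA libraries, and 12.82, 13.7 and 13.05 FPKM in the DMSO libraries. All H93 libraries were above all SAHA libraries, and all SAHA libraries were above all DMSO libraries. The means were 23.6 ± 0.662 FPKM under H93, 19.8 ± 0.849 FPKM under SAHA and 13.2 ± 0.457 FPKM under DMSO (SD, n = 3 each). These levels exceeded those of 82.3%, 79.4% and 71.3% of genes in the H93, SAHA and DMSO groups. Summed over 3 libraries they rest on 7051 steps under H93, 5867 under SAHA and 4092 under DMSO.

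GSN was 1.79-fold higher under H93 than under DMSO, a log2 difference of 0.79 (95% interval 0.71 to 0.88, limma adjusted p = 2.92e-09). Genes that rose made up 34.9% of those tested in that comparison and genes that fell 35%, so a call alone is common here. By size, 2.85% of tested genes had a larger difference upward than GSN. Under SAHA it was 1.5-fold higher than under DMSO, with a log2 difference of 0.55 (95% interval 0.47 to 0.64, limma adjusted p = 1.5e-07). In that comparison 27.4% of genes rose, 31.4% fell, and 3.63% had a larger difference upward. H93 also exceeded SAHA, by 1.19-fold and a log2 difference of 0.24 (95% interval 0.16 to 0.33, limma adjusted p = 0.000775). There 17.6% of genes were higher, 13.9% were lower, and 4.41% had a larger difference upward. The GSN groups did not overlap in any of the 3 comparisons, which held for 73.2% of genes for H93 against DMSO, 64.1% for SAHA against DMSO and 44.4% for H93 against SAHA. GSN did not reach the 2-fold call, an adjusted p under 0.05 with an absolute log2 difference of at least 1, which 2.28% of genes met for H93 against DMSO, 1.12% for SAHA against DMSO and 0.0174% for H93 against SAHA.

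CLU moved the other way. It had 43.52, 44.28 and 45.18 FPKM in the H93 libraries, 46.35, 45.15 and 45.04 FPKM in the SAHA libraries, and 57.9, 55.19 and 57.79 FPKM in the DMSO libraries. Every H93 and SAHA library was below every DMSO library, and the H93 and SAHA libraries overlapped. Separation from DMSO, in either direction, held for 73.2% of tested genes for H93 and 64.1% for SAHA. CLU remained the highest of the 4 markers, at 44.3 ± 0.831 FPKM under H93, 45.5 ± 0.731 FPKM under SAHA and 57.0 ± 1.53 FPKM under DMSO (SD, n = 3 each). Its level exceeded that of 90.6% of genes under H93, 90.8% under SAHA and 93% under DMSO.

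Under H93, CLU stood at 77.8% of its DMSO level, a log2 difference of -0.35 (95% interval -0.41 to -0.29, limma adjusted p = 1.93e-07). In that comparison 35% of tested genes fell, and a larger difference downward was found for 12.88%. Under SAHA it stood at 79.9% of its DMSO level, a log2 difference of -0.32 (95% interval -0.38 to -0.26, limma adjusted p = 1.01e-06). There 31.4% of tested genes fell, and 9.48% had a larger difference downward. H93 and SAHA differed by -0.04 on the log2 scale (95% interval -0.1 to 0.02, limma adjusted p = 0.328). A p above the threshold does not show that the compounds act alike on CLU.

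HEXIM1 had 32.28, 30.26 and 30.64 FPKM in the H93 libraries, 30.3, 32.83 and 32.65 FPKM in the SAHA libraries, and 30.9, 27.18 and 30.11 FPKM in the DMSO libraries. The lowest value was the second DMSO library, and the groups overlapped in all 3 comparisons. The means were 31.1 ± 1.08 FPKM under H93, 31.9 ± 1.41 FPKM under SAHA and 29.4 ± 1.96 FPKM under DMSO (SD, n = 3 each). HEXIM1 was thus well expressed with solvent alone, above 85.5% of genes.

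The difference of H93 from DMSO in HEXIM1 was 0.08 on the log2 scale (95% interval -0.02 to 0.18, limma adjusted p = 0.158), and without the second DMSO library it was 0.02 (adjusted p = 0.621). For SAHA against DMSO it was 0.12 (95% interval 0.01 to 0.22), and the limma adjusted p of 0.0502 lay just outside the threshold. Without the first SAHA library the adjusted p was 0.0208, without the first DMSO library 0.0221, and without the first H93 library, which enters only the estimate of spread, it was 0.05 after rounding and under the threshold. Without the second DMSO library the difference was 0.06 (adjusted p = 0.227), and without the second or the third SAHA library the adjusted p was 0.146 or 0.139. H93 and SAHA differed by -0.04 (95% interval -0.14 to 0.06, limma adjusted p = 0.571). With limma HEXIM1 was therefore called in 0 of 3 comparisons, against 1 at an unadjusted p under 0.05 and 1 with voom on apparent fragments, both of them SAHA against DMSO. By comparison, 69.8% of genes were called by limma in either direction for H93 against DMSO, 58.8% for SAHA against DMSO and 31.5% for H93 against SAHA.

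**Figure D2:**
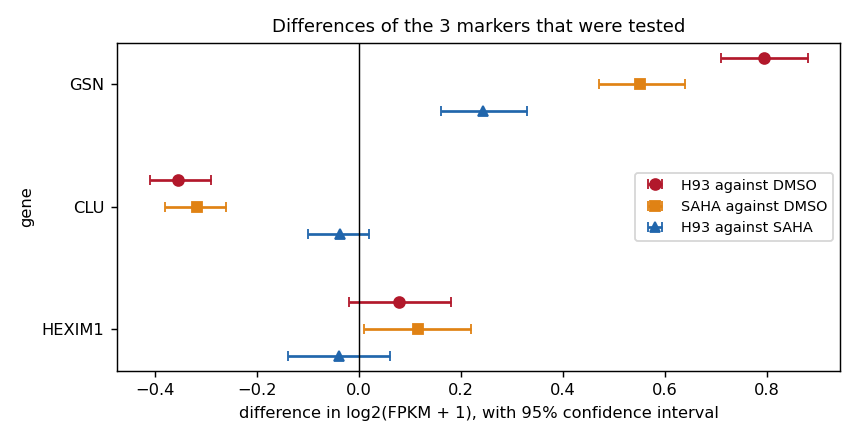
Difference in log2(FPKM + 1) with its 95% interval for GSN, CLU and HEXIM1 in H93 against DMSO, SAHA against DMSO and H93 against SAHA, from limma. The GSN intervals lie above 0 in all 3 comparisons, the CLU intervals lie below 0 only against DMSO, and the HEXIM1 estimates lie within 0.12 of 0.

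DHRS2 was close to silent. It had 0.2377, 0.1989 and 0.2586 FPKM in the H93 libraries, 0.04276, 0.1153 and 0.04288 FPKM in the SAHA libraries, and 0.08072, 0.08985 and 0.08086 FPKM in the DMSO libraries. All H93 libraries were above all libraries of the other groups, while SAHA and DMSO overlapped. Among genes that passed the filter, 73.2% separated in either direction for H93 against DMSO and 44.4% for H93 against SAHA. The share among genes as low as DHRS2 was not computed. In apparent fragments these were 11, 9 and 12 under H93, 2, 5 and 2 under SAHA, and 4 in each DMSO library. The sums over 3 libraries were 32 under H93 (exact Poisson 95% interval 21.9 to 45.2), 9 under SAHA (4.12 to 17.1) and 12 under DMSO (6.2 to 21), intervals that cover counting error only and that hold if 1 step is 1 fragment.

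The DHRS2 mean was 0.232 ± 0.0303 FPKM under H93, 0.067 ± 0.0418 FPKM under SAHA and 0.0838 ± 0.00523 FPKM under DMSO (SD, n = 3 each). H93 was 2.77-fold above DMSO and 3.46-fold above SAHA by these means, each with an exact two-sided permutation p of 0.1, the smallest that 3 libraries against 3 allow. SAHA was at 0.799 of the DMSO mean, with an exact permutation p of 0.4. Fitted with limma's voom to the apparent fragments, the log2 difference of H93 from DMSO was 1.36 (95% interval 0.33 to 2.39, adjusted p = 0.0187) and of H93 from SAHA 1.77 (0.66 to 2.89, adjusted p = 0.0131). In that fit SAHA differed from DMSO by -0.41 (-1.67 to 0.85, adjusted p = 0.609). It called 62.3% of its genes for H93 against DMSO, 52.7% for SAHA against DMSO and 26.9% for H93 against SAHA. With log2(FPKM + 1) and no filter on low values, limma gave DHRS2 an adjusted p of 0.000639 for H93 against DMSO, 0.578 for SAHA against DMSO and 0.00239 for H93 against SAHA, in fits that called 52.7%, 43% and 19% of genes. Even under H93 the DHRS2 level exceeded that of only 23.5% of genes in the table.

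**Figure D3:**
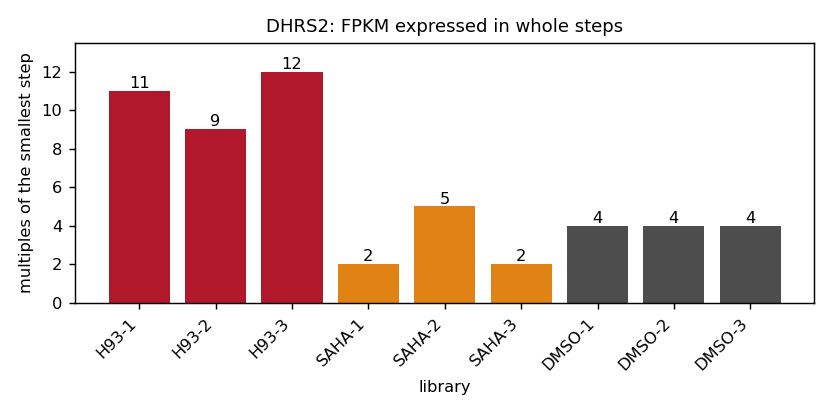
DHRS2 in each library as the number of whole steps in its FPKM value, with bars from 0. The H93 libraries hold 9 to 12 steps, the SAHA libraries 2 to 5 and the DMSO libraries 4 each.

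The genes whose log2(FPKM + 1) followed each marker most closely over the 9 libraries are given as a description, since all share the same libraries and groups. For GSN they included CPA4 (r = 0.9979) and TSC22D2 (r = 0.9968). CPA4, a carboxypeptidase first identified as a gene induced by deacetylase inhibition in prostate cancer cells, had 4.7 FPKM under H93, 3.19 under SAHA and 1.34 under DMSO. TSC22D2, a leucine zipper protein, had 18.9 FPKM under H93, 16.1 under SAHA and 11.8 under DMSO. For CLU they were PTPRE (r = 0.9980), PTPRS (r = 0.9952) and PHPT1 (r = 0.9951), all of them phosphatases. PTPRE had 2.28 FPKM under H93, 2.55 under SAHA and 5.57 under DMSO. For HEXIM1 the closest were TNFAIP8 (r = 0.9438), RASSF1 (r = 0.9252) and SDHAF3 (r = 0.9109), and for DHRS2 they were LIG4 (r = 0.9657), KDM5A (r = 0.9626) and AREG (r = 0.9605).

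Other genes known to be raised by deacetylase inhibitors moved in both directions. Of 15 listed, 14 were tested, and 9 rose, 4 fell and 1 did not pass for H93 against DMSO. The counts were again 9, 4 and 1 for SAHA against DMSO. Over all tested genes, 34.9% rose and 35% fell for H93, and 27.4% rose and 31.4% fell for SAHA. The median log2 difference of the list was 0.25 for H93 and 0.15 for SAHA, beside medians over all tested genes of 0.002 and -0.015. For H93 against SAHA, 6 were higher, 1 was lower and 7 did not pass, beside 17.6% higher and 13.9% lower over all tested genes.

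CDKN1A, which encodes the cell cycle inhibitor p21 and is the best known gene of this response, had 80.6 ± 0.734 FPKM under H93, 63.4 ± 1.35 under SAHA and 20.8 ± 1.33 under DMSO. Its log2 differences from DMSO were 1.91 for H93 (limma adjusted p = 1.39e-12) and 1.57 for SAHA (limma adjusted p = 1.8e-11). Both differences were larger than those of GSN given above, without a test between the genes. CDKN2D, the inhibitor p19 of cyclin D kinases, had 10.1 ± 0.865 FPKM under H93, 8.2 ± 0.33 under SAHA and 5.22 ± 0.486 under DMSO. KLF4, a zinc-finger transcription factor, had 8.28 ± 0.196 FPKM under H93, 6.47 ± 0.669 under SAHA and 4.56 ± 0.392 under DMSO. MT2A, a metallothionein, had 2011 ± 271 FPKM under H93, 1949 ± 67.8 under SAHA and 1270 ± 85.3 under DMSO, and its close paralogs make its share of reads uncertain. CDKN2D, KLF4 and MT2A rose under both compounds.

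The 4 listed genes that fell included CDKN1C, SAT1 and TXNIP, which are named here after their values were seen. CDKN1C, the cell cycle inhibitor p57, had 1.35, 1.17 and 1.37 FPKM under H93, 1.36, 0.855 and 1.08 FPKM under SAHA, and 1.95, 2.02 and 1.71 FPKM under DMSO. SAT1, which acetylates polyamines, had 17.4, 17.4 and 17.7 FPKM under H93, 15.7, 16.2 and 15.1 FPKM under SAHA, and 19.5, 19.7 and 19.7 FPKM under DMSO. Every H93 and SAHA library lay below every DMSO library for both genes. Such a separation is common here, found in either direction for 73.2% of tested genes for H93 and 64.1% for SAHA. TXNIP, a thioredoxin-binding protein, had 0.735, 0.716 and 1.34 FPKM under H93, so the third H93 library lay among the DMSO libraries at 1.37, 1.31 and 1.31 FPKM. Its SAHA libraries had 0.831, 0.803 and 0.868 FPKM. TXNIP thus passed the filter only through DMSO and the third H93 library, which favours finding it lower under the compounds. The count of 4 falls for H93 became 2 when the first H93, second H93 or first DMSO library was left out, TXNIP being among those that then missed the threshold.

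**Figure D4:**
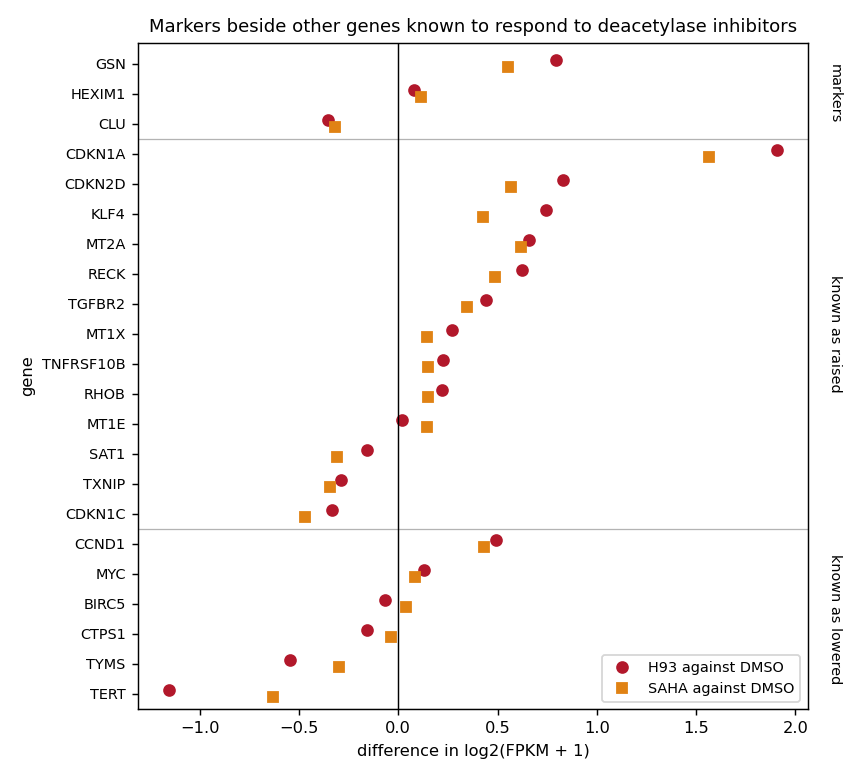
Difference in log2(FPKM + 1) of H93 and SAHA against DMSO for the 3 markers tested and for genes, named or counted in the text, known to be raised or lowered by deacetylase inhibitors, from limma. CDKN1A lies furthest right at 1.91 and 1.57, TERT furthest left at -1.16 and -0.63, and members of each list lie on both sides of 0.

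Of 6 genes known to be lowered by these inhibitors, 2 rose and 4 fell for H93 against DMSO, with a median log2 difference of -0.11. For SAHA against DMSO 1 rose, 2 fell and 3 did not pass, with a median of 0.0. The 1 rise under SAHA became 2 without the first DMSO or the second SAHA library, with median-ratio rescaling and with voom. Of all genes tested, 34.9% rose and 35% fell for H93, and 27.4% rose and 31.4% fell for SAHA. TERT, the catalytic subunit of telomerase, had 0.941 ± 0.0672 FPKM under H93, 1.79 ± 0.0361 under SAHA and 3.33 ± 0.287 under DMSO. TYMS, thymidylate synthase, had 130 ± 3.02 FPKM under H93, 155 ± 1.27 under SAHA and 190 ± 1.43 under DMSO. TERT and TYMS fell under both compounds. CCND1, cyclin D1, rose under both, with 163 ± 0.357 FPKM under H93, 157 ± 0.749 under SAHA and 116 ± 0.459 under DMSO. CTPS1, which makes CTP, had 31.1 ± 0.901 FPKM under H93, 33.9 ± 0.549 under SAHA and 34.8 ± 0.636 under DMSO, and fell under H93 (limma adjusted p = 0.00039) while SAHA against DMSO did not pass (limma adjusted p = 0.282). HDAC1, a nuclear deacetylase that SAHA inhibits, also rose, with 82.0 ± 1.91 FPKM under H93, 82.7 ± 2.63 under SAHA and 61.8 ± 0.8 under DMSO.

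HEXIM1 acts within the P-TEFb and elongation machinery, for which 17 of 17 listed genes were tested. Of these 7 rose, 5 fell and 5 did not pass for H93 against DMSO, and 3 rose, 7 fell and 7 did not pass for SAHA against DMSO, with medians of 0.02 and 0.0. These counts are near the shares over all tested genes, 34.9% up and 35% down for H93 and 27.4% up and 31.4% down for SAHA, and are no result about the group. The 7 falls under SAHA became 4 when the second SAHA or second DMSO library was left out. MEPCE, the methyl cap enzyme that stabilises 7SK RNA, fell most, with 11.6 ± 0.295 FPKM under H93, 15.4 ± 0.509 under SAHA and 23.7 ± 0.839 under DMSO. ELL2, a subunit of the super elongation complex, rose, with 11 ± 0.188 FPKM under H93, 8.78 ± 0.413 under SAHA and 5.65 ± 0.301 under DMSO. SUPT4H1, the small subunit of the elongation factor DSIF, also rose under both compounds, with 45.1 ± 0.251 FPKM under H93, 41.4 ± 2.92 under SAHA and 33.5 ± 0.218 under DMSO. NELFB, a subunit of the pausing factor NELF, fell under both, with 45.5 ± 0.946 FPKM under H93, 48.9 ± 0.776 under SAHA and 59.1 ± 2.19 under DMSO. HEXIM2, the paralog of HEXIM1, had 3.29 ± 0.285 FPKM under H93, 3.33 ± 0.253 under SAHA and 2.96 ± 0.264 under DMSO, with limma adjusted p of 0.151 for H93 and 0.121 for SAHA against DMSO. CDK9, the kinase of P-TEFb, had 35.7 FPKM under H93, 37.3 under SAHA and 37.2 under DMSO, with limma adjusted p of 0.134 and 0.921 for the comparisons of H93 and SAHA with DMSO.

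Among 7 relatives of gelsolin in the severing and capping family, 3 were tested, and 1 rose, 1 fell and 1 did not pass under each compound, with medians of -0.04 for H93 and 0.07 for SAHA. With 3 genes tested, 1 in each direction is near the all-gene shares of 34.9% and 35% for H93 and 27.4% and 31.4% for SAHA. CAPG, the macrophage capping protein, rose, with 33.9 ± 1.02 FPKM under H93, 37.7 ± 0.844 under SAHA and 27.7 ± 0.766 under DMSO. Unlike GSN it was lower under H93 than under SAHA, by -0.15 on the log2 scale (limma adjusted p = 0.00494). FLII, the flightless homolog, fell, with 86.9 ± 1.95 FPKM under H93, 96.0 ± 1.66 under SAHA and 113 ± 0.251 under DMSO. SVIL, supervillin, was the relative that did not pass, with 5.58 ± 0.0508 FPKM under H93, 6.12 ± 0.178 under SAHA and 5.79 ± 0.0825 under DMSO. SCIN, scinderin, was below the filter, with 0.57, 0.703 and 0.552 FPKM under H93, 0.498, 0.626 and 0.582 FPKM under SAHA, and 0.0627, 0.174 and 0.188 FPKM under DMSO. The SCIN libraries of both compounds lay above all DMSO libraries. Among genes that passed the filter, 73.2% separated from DMSO in either direction for H93 and 64.1% for SAHA. The share among lower genes was not computed. With no filter or with voom, which test more of the relatives, 3 rose for each compound. With no filter, 52.7% of all genes were called in either direction for H93 and 43% for SAHA. With voom these shares were 62.3% and 52.7%.

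Of 15 genes of actin turnover all were tested, and 7 rose, 4 fell and 4 did not pass under each compound, with a median of 0.09 for both. Of all tested genes, 34.9% rose and 35% fell for H93, against 27.4% and 31.4% for SAHA. CAP2, a cyclase-associated actin regulator, fell, with 5.56 ± 0.13 FPKM under H93, 7.32 ± 0.517 under SAHA and 13.7 ± 0.184 under DMSO. Its broadly expressed paralog CAP1 rose, with 181 ± 2.69 FPKM under H93, 168 ± 3.38 under SAHA and 116 ± 4.05 under DMSO. PFN1, profilin, which feeds monomers to growing filaments, fell, with 778 ± 12.6 FPKM under H93, 841 ± 32.0 under SAHA and 940 ± 21.2 under DMSO. TWF1, twinfilin, which binds actin monomers, rose, with 84.1 ± 0.679 FPKM under H93, 77.3 ± 0.665 under SAHA and 70.6 ± 1.16 under DMSO. These 4 genes were called in both comparisons with DMSO.

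DHRS2 has relatives among the short-chain dehydrogenases/reductases, of which 15 were tested. Under each compound 5 rose, 5 fell and 5 did not pass, with medians of -0.02 for H93 and 0.01 for SAHA. These counts are near the all-gene shares of 34.9% up and 35% down for H93 and 27.4% up and 31.4% down for SAHA. DHRS12, counted as a fall under both compounds, passed the filter only through its DMSO libraries, at 1.01, 1.06 and 1.13 FPKM. DHRS7 rose, with 38.2 ± 0.48 FPKM under H93, 32.4 ± 1.38 under SAHA and 17.1 ± 0.438 under DMSO. DHRS3, a retinal reductase that is itself induced by retinoic acid, fell, with 1.29 ± 0.147 FPKM under H93, 2.09 ± 0.305 under SAHA and 6.82 ± 0.473 under DMSO. DCXR, the xylulose reductase of this family, fell as well, with 32.2 ± 1.3 FPKM under H93, 32.3 ± 3.77 under SAHA and 48.6 ± 1.58 under DMSO. DHRS7B rose, with 10.3 ± 0.249 FPKM under H93, 9.85 ± 0.406 under SAHA and 7.05 ± 0.446 under DMSO. DHRS4, which lies on the same chromosome as DHRS2 at chr14:23953586-23969279, had 8.78 ± 0.6 FPKM under H93, 11.3 ± 1.11 under SAHA and 11.4 ± 1.36 under DMSO. It fell under H93 by 0.34 on the log2 scale (limma adjusted p = 0.00195) and differed from DMSO under SAHA by -0.02 (limma adjusted p = 0.883). Its near-identical copy DHRS4L2 had 3.98 ± 0.125 FPKM under H93, 3.8 ± 0.5 under SAHA and 4.07 ± 0.281 under DMSO, and reads may have been split between these copies.

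Clusterin was set beside a list of apolipoproteins, clusterin receptors, A2M and the heat shock factors HSF1 and HSF2, of which 8 genes were tested. HSF1 and HSF2 were among the 8 and did not pass for either compound. For H93 against DMSO 1 rose, 5 fell and 2 did not pass, and for SAHA against DMSO 1 rose, 4 fell and 3 did not pass, with medians of -0.19 and -0.17. The all-gene shares were 34.9% up and 35% down for H93 and 27.4% up and 31.4% down for SAHA. With voom, which admits more low genes, 3 rose for H93 and 2 for SAHA, and 2 rose for SAHA with no filter. Voom called 62.3% of its genes in either direction for H93 and 52.7% for SAHA. The fit with no filter called 43% for SAHA. The gene that rose among the 8 was APOE, the main apolipoprotein of lipid transport between cells. It had 14.3 ± 1.39 FPKM under H93, 15.9 ± 1.05 under SAHA and 5.47 ± 0.303 under DMSO. APOC1, its neighbour in the same gene cluster, fell, with 2.88 ± 0.529 FPKM under H93, 4.43 ± 0.675 under SAHA and 12 ± 0.753 under DMSO. LRP8, a receptor that binds clusterin, had 6.38 FPKM under H93, 7.57 under SAHA and 11.1 under DMSO. LRP8 fell under both compounds, as CLU did.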

How the data were processed

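RNA was sequenced from DU145 cells in 3 groups of 3 libraries. The authors deposited 1 table of FPKM per gene and library. Per the submitters' processing notes, the tools included Trimmomatic 0.36, HISAT2 and Cufflinks and the build was GRCh38.p13. Annotation and strand handling were not given in the sources used here, so reads of overlapping antisense genes may be included. All columns were matched to samples by name.

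log2(FPKM + 1) was fitted with limma 3.58.1 (R 4.3.3) over all 9 libraries with group means and a mean-variance trend, for the 11525 genes with at least 1 FPKM in at least 3 libraries. The threshold was a two-sided p of 0.05 after Benjamini-Hochberg adjustment across those genes. The scale understates changes of low genes. DHRS2 failed the filter and was given exact permutation tests (scipy 1.17.1).

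FPKM were whole multiples of a step per gene and library for 16704 of 16772 genes, and the step numbers, taken as apparent fragments, were also fitted with voom for the 14788 genes summing to at least 10. That alternative was chosen after seeing the data. Relative depths were 0.875 to 1.0. Same-numbered libraries did not deviate together (r of -0.098 to 0.036), so numbers were not used as pairs.

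The members and the 7 gene lists were chosen with earlier results of these data known. Genes named were the members, the 3 genes most correlated with each, up to 4 list members with the largest absolute difference, the nearest relatives, CDKN1A and HDAC1. Some genes that this rule names are not reported here. Alternatives were a pseudocount of 0.1, no filter, median-ratio rescaling, a fit to the 6 libraries compared, a replicate block and leaving out each library. The fit was tested on simulated data.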

Additional observations from a re-analysis of the deposited data

How the results depend on the processing

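The differences of GSN and CLU kept their direction and their side of the threshold in all 15 alternatives of each of the 3 comparisons, and so did HEXIM1 for H93 against DMSO and H93 against SAHA. HEXIM1, SAHA against DMSO, passed the threshold with median-ratio rescaling (log2 difference 0.13, adjusted p = 0.0404) and with voom (0.12, adjusted p = 0.00995), and leaving out single libraries gave 0.0629 to 0.1525. The cause was not tested. DHRS2 depends on the scale: with a pseudocount of 0.1 its log2 differences were 0.85 for H93 against DMSO, -0.17 for SAHA against DMSO and 1.0146 for H93 against SAHA, and with voom they were 1.36, -0.41 and 1.77. Without the filter, where it enters the test, the differences were 0.18 for H93 against DMSO (limma adjusted p = 0.000639) and 0.21 for H93 against SAHA (limma adjusted p = 0.00239). With the replicate block, GSN differed by 0.79 for H93 against DMSO. The block changed the call of no marker, and it brought HEXIM2 to an adjusted p of 0.0485 for H93 and 0.0353 for SAHA against DMSO. Counts of all genes called stayed within 1.5 times in every alternative. The depth behind DHRS2, 2 to 12 steps in a library, limits any statement on it.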

Other observations

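Other listed relatives stayed under the filter and were not tested in the main comparisons. DHRS9, a retinol dehydrogenase of the same family as DHRS2, had 0.668, 0.38 and 0.518 FPKM under H93, 0.343, 0.238 and 0.491 FPKM under SAHA, and 0.116, 0.0515 and 0.0463 FPKM under DMSO. All libraries of both compounds lay above all DMSO libraries. Among genes that passed the filter, 73.2% separated in either direction for H93 and 64.1% for SAHA. The share among genes under the filter, such as DHRS9, was not computed. AVIL, advillin, a relative of gelsolin, averaged 0.287 FPKM under H93, 0.245 under SAHA and 0.124 under DMSO. APOL6, an intracellular apolipoprotein, ran the other way, averaging 0.0813 FPKM under H93, 0.107 under SAHA and 0.337 under DMSO. These genes were named after their values were seen.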
